A study of Rattus norvegicus with 6 samples.

Results

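The genes described here are 40 genes of autophagy and mitophagy, chosen by name and grouped by the step at which their products act. Of these, 39 were found by symbol among the 18825 genes of the table and Atg2b is not analysed here. All 39 passed the filter on low counts and none had a count of 0 in any library. They were followed in dorsal skin wounds of male Sprague–Dawley rats made diabetic by a diet rich in fat and sucrose and then streptozotocin, which destroys beta cells of the pancreas. The 6 libraries of messenger RNA formed 2 groups of 3 biological replicates. In the DST-MNs group the wounds received microneedles that carried spheroids of dental pulp stem cells regulated by spermidine, a polyamine, and by the growth factor TGF-β3. In the control group the diabetic wounds were left untreated. All wounds were full-thickness. The age of the animals, the day of collection, the species of the stem cells and the effect of needles without cells are not given in the labels, so cells, spermidine, TGF-β3 and the needles themselves cannot be told apart.

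Autophagy encloses cytoplasm in a double membrane, the autophagosome, and delivers it to the lysosome for breakdown. The ULK1 kinase complex starts the process when nutrients are short, a lipid kinase complex built on Beclin 1 marks the site of membrane growth, and a conjugation system similar to that of ubiquitin attaches proteins of the ATG8 family to the membrane. Receptor proteins bind cargo and ATG8 proteins at once, and mitophagy is the same process aimed at damaged mitochondria. Much of the pathway is controlled on existing proteins, by phosphorylation and lipidation, and RNA levels do not measure its flux. Spermidine is known as an inducer of autophagy, in part through the modified translation factor eIF5A, which favours production of TFEB, a transcription factor of lysosomal and autophagy genes.

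The transcripts of the machinery differed little between the groups. Of the 39 genes, 0 rose and 0 fell in DST-MNs wounds (quasi-likelihood test of edgeR over 14427 genes, with p adjusted by Benjamini-Hochberg and a threshold of 0.05), where 112 of all genes tested, 0.776%, were called. The Wald test of DESeq2 also called 0 of the 39. Without adjustment, p was below 0.05 for 6 listed genes, or 15.4%, and for 16.7% of all genes. Of the 6, 3 were higher and 3 lower, where 9.8% of all genes were higher and 6.88% lower at that p. Log2 changes were above 0 for 17 of the 39 and for 50.5% of all genes. The log2 changes of the 39 genes ran from -0.42 for Atg4c to 0.49 for Tfeb, with a median of -0.03 beside 0.00 over all genes tested. Every one of the 39 had an absolute log2 change below 0.5, as did 77.2% of all genes.

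These small changes came with narrow intervals. The 95% interval of the log2 change lay within -1 and 1, a 2-fold change either way, for 38 of the 39 genes and for 66.7% of all genes, and within a 1.5-fold change for 27 of the 39 and for 35.5% of all genes. The exception at 2-fold was Atg10, with an interval of -1.02 to 0.34. The listed genes were more abundant than the typical gene, at a median of 5.54 log2 CPM against 4.64 over all genes tested. They also varied less among libraries of a group, with a median SD of 0.14 on the log2 scale against 0.24. CPM here are counts scaled to library size after TMM normalisation, which serve to compare 1 gene between libraries, and TPM are the authors' values scaled by gene length, which serve to compare genes.

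**Figure D1:**
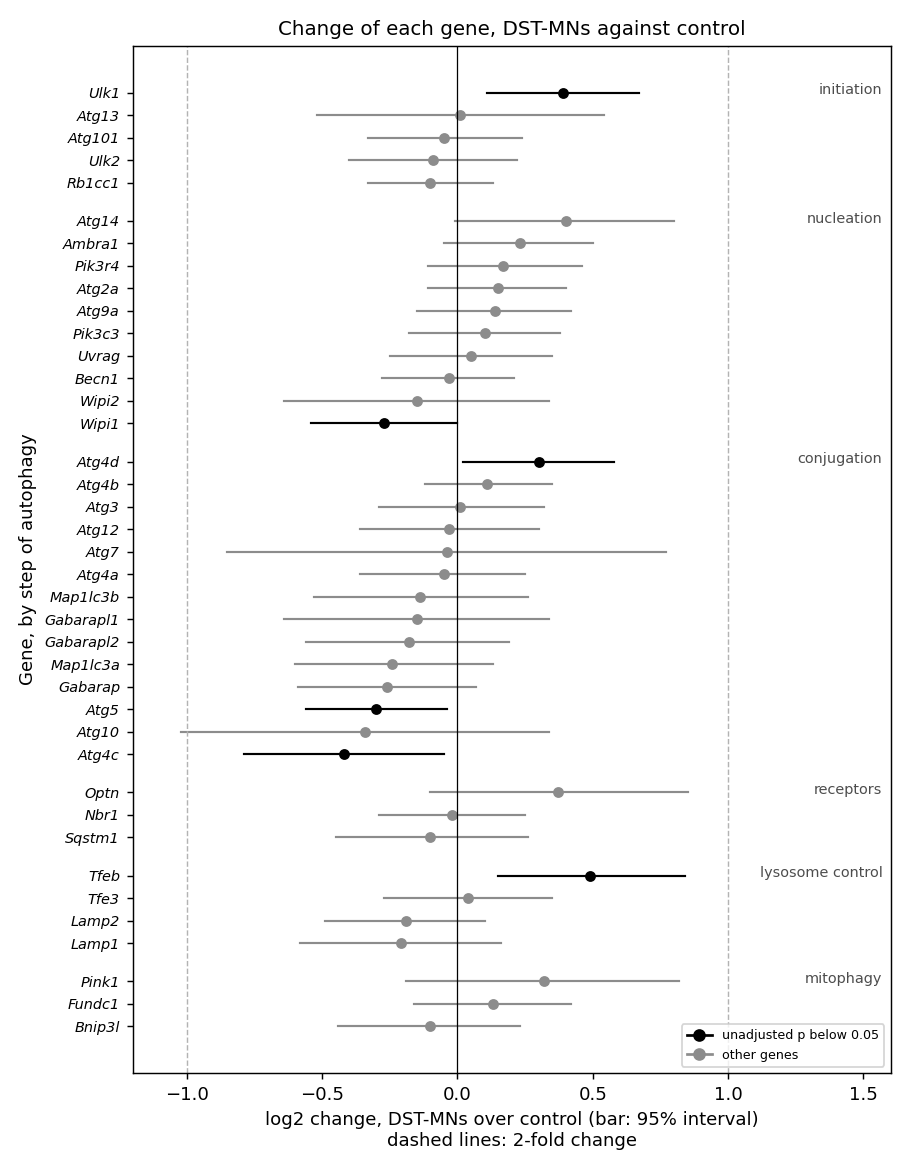
Log2 change of each of the 39 genes, DST-MNs over control, with its 95% interval from edgeR's fit over all genes (3 libraries a group), ordered by step. Black marks the 6 genes with an unadjusted p below 0.05; all points lie between -0.42 and 0.49, and the interval of Atg10 alone crosses a dashed line of 2-fold change.

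Library totals ran from 12545206 to 13818548 counts. The tissue differed between libraries in other ways. The 10 markers of skeletal muscle, among them creatine kinase Ckm, summed to 7028 to 9192 TPM in the DST-MNs wounds and to 8585 TPM in control 1, but to 25.6 TPM in control 2, where 3 of the 10 were at 0, and 492 TPM in control 3. The 10 keratinocyte markers summed to 4118, 299 and 1268 TPM in DST-MNs 1, 2 and 3 and to 180, 12.8 and 164 TPM in controls 1, 2 and 3. Fibroblast markers, the collagens among them, were abundant in all 6 libraries, at 24189 to 36085 TPM. Of these 8 markers, 7 had log2 changes below 0 and 1 above, with 0 calls by edgeR and 2 by DESeq2. Of the 7 macrophage markers tested, 4 were below 0 and 3 above. Among them Cd163 was called lower by edgeR (log2 change -1.75, adjusted p = 0.0115). The part of these cells in the levels of the listed genes was not tested. In bulk tissue, fewer cells of a type and less RNA per cell cannot be told apart.

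The levels of the machinery spanned a wide range that was alike in the groups. Gabarap was the most abundant, with 727, 769 and 791 TPM in DST-MNs 1, 2 and 3 and 810, 865 and 788 TPM in controls 1, 2 and 3. Lamp1 (mean of 6 libraries 455 TPM), Lamp2 (239), Sqstm1 (198), Map1lc3b (193) and Map1lc3a (161) followed. Sqstm1 and Map1lc3b, neighbours in this order, did not differ beyond their spread. The 5 lowest were Atg2a at 9.54 TPM, Pik3r4 at 9.04, Atg7 at 7.39, Atg10 at 5.54 and Atg14 at 5.44. Summed TPM of the 39 genes was 3010, 3288 and 2937 in the DST-MNs libraries and 3160, 3057 and 3003 in the controls, so that the groups overlapped.

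**Figure D2:**
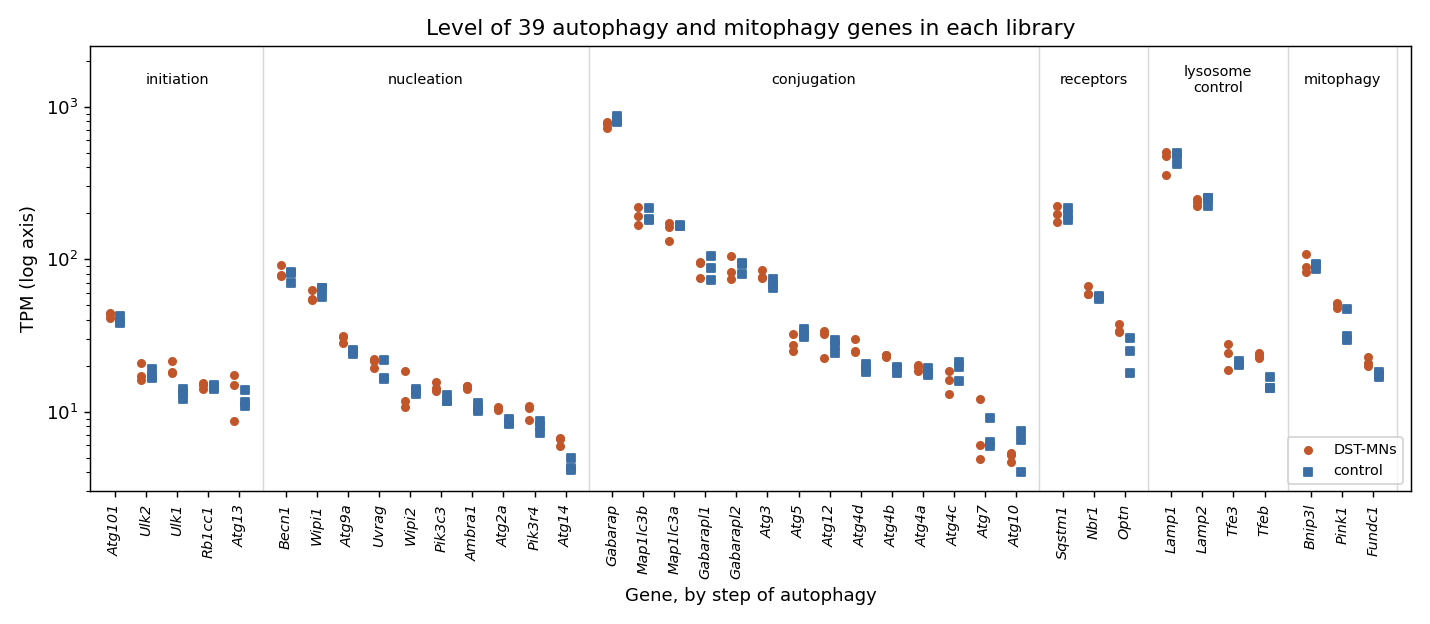
TPM (log axis) of the 39 genes in each of 6 libraries, ordered by step and, within a step, by mean level; circles are DST-MNs libraries and squares are control libraries. Levels run from a mean of 5.44 TPM for Atg14 to 792 TPM for Gabarap, and the groups lie close together for nearly all genes.

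Initiation rests on the kinases ULK1 and ULK2 with their partners ATG13, FIP200 (the product of Rb1cc1) and ATG101. Ulk1 (gene ID 360827) had 68.7, 59.5 and 65.5 CPM in DST-MNs 1, 2 and 3, against 54.8, 45.6 and 47.4 CPM in controls 1, 2 and 3. Each treated library was above every control, and the log2 change was 0.39 (SE 0.12, 95% interval 0.11 to 0.67, unadjusted p = 0.0131, adjusted p = 0.184). Ulk2 (303206) had 66.0, 87.5 and 76.7 CPM after treatment and 80.0, 80.0 and 85.4 CPM in controls, a log2 change of -0.09 (SE 0.13). The share of Ulk1 in the TPM of the 2 kinases, which does not depend on scaling between libraries, was 57.2%, 46.0% and 51.3% in DST-MNs wounds and 46.2%, 41.7% and 41.1% in controls, so the groups overlapped slightly.

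The partners of the kinases stayed within narrow limits. Rb1cc1 (312927), the scaffold of the complex, had 61.1, 62.1 and 62.7 CPM in DST-MNs wounds against 71.6, 64.7 and 63.0 CPM in controls. Its groups did not overlap, but the gap between them was small and the log2 change was -0.10 (SE 0.10, adjusted p = 0.644). Atg101 (300240), the most abundant of the complex per length, had 41.4, 44.6 and 43.5 TPM after treatment and 38.0, 42.5 and 38.8 TPM in controls, with a log2 change of -0.05 (SE 0.12) in CPM. Atg13 had a log2 change of 0.01 (SE 0.22) and a wider spread, with 25.7 and 23.3 CPM in DST-MNs 1 and 2 but 14.8 CPM in DST-MNs 3.

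Nucleation joins a lipid kinase complex, which makes the phosphoinositide PI3P, to the proteins that bring membrane to the growing autophagosome. Of the 10 genes of this step, 7 had log2 changes above 0 and 3 below, and 0 were called. Atg14 (305831), the subunit that directs the kinase to autophagy, had 12.9, 15.04 and 16.3 CPM in DST-MNs wounds against 11.1, 10.5 and 11.97 CPM in controls. The groups were apart, with a log2 change of 0.40 (SE 0.17, 95% interval -0.01 to 0.80, adjusted p = 0.307). Ambra1 (59319), a regulator that links Beclin 1 to ubiquitin ligases, had 35.0, 33.1 and 34.6 CPM after treatment against 31.9, 27.0 and 28.7 CPM in controls (log2 change 0.23, SE 0.11, adjusted p = 0.374). Pik3r4 (363131), the regulatory subunit VPS15, had 31.5, 33.5 and 29.9 CPM against 29.2, 25.5 and 29.4 CPM in controls (log2 change 0.17, SE 0.12).

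Other members of the kinase complex did not separate the groups. Becn1 (114558), which encodes Beclin 1, had 94.4, 99.8 and 92.4 CPM in DST-MNs wounds and 91.6, 99.1 and 103 CPM in controls, a log2 change of -0.03 (SE 0.10). The catalytic subunit gene Pik3c3 and Uvrag, whose product takes the place of ATG14 in an endosomal form of the complex, had log2 changes of 0.10 and 0.05. Of the membrane proteins, Wipi1 (303630), a reader of PI3P, had 59.8, 70.7 and 68.3 CPM after treatment against 74.4, 84.9 and 80.9 CPM in controls. It was lower in each treated library than in any control, by a log2 change of -0.27 (SE 0.11, 95% interval -0.54 to 0.00, adjusted p = 0.296). Its relative Wipi2 had a log2 change of -0.15 (SE 0.21), the lipid transfer gene Atg2a one of 0.15 (SE 0.11) and the scramblase gene Atg9a one of 0.14 (SE 0.12).

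Of the 14 genes of the conjugation step, 11 had log2 changes below 0, with a median of -0.14 and 0 genes called. That count depended on the scale: in log2(TPM + 1) there were 6 below 0, 6 above and 2 at 0.00. No difference between steps was tested. Atg5 (365601), which forms with ATG12 the conjugate that places ATG8 proteins on the membrane, had 35.4, 41.6 and 36.7 CPM in DST-MNs wounds against 44.8, 47.4 and 47.5 CPM in controls. The groups were apart (log2 change -0.30, SE 0.11, unadjusted p = 0.0302, adjusted p = 0.250). Its partner Atg12 had a log2 change of -0.03 (SE 0.14). The E2-like enzyme gene Atg3 stood at 0.01 (SE 0.13) and the E1-like enzyme gene Atg7 at -0.04 (SE 0.34).

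Atg7 and Atg10, an E2-like enzyme for ATG12, were the least precise of the set. Atg7 had 18.2, 9.25 and 8.40 CPM in DST-MNs 1, 2 and 3 and 11.4, 10.3 and 15.2 CPM in controls 1, 2 and 3. DST-MNs 1 was the highest library and DST-MNs 3 the lowest, and without DST-MNs 1 the log2 change was -0.48 (adjusted p = 0.342). Atg10 (688555) had 5.37, 4.92 and 5.65 CPM after treatment and 8.50, 4.58 and 7.08 CPM in controls, with controls both above and below every treated library (log2 change -0.34, SE 0.28).

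The ATG4 proteases trim ATG8 proteins before conjugation and release them afterwards, and 2 of the 4 genes differed in opposite directions, neither past the adjusted threshold. Atg4c (313391) had 28.2, 33.9 and 25.6 CPM in DST-MNs wounds against 34.5, 44.1 and 39.03 CPM in controls, the lowest log2 change of the 39 genes at -0.42 (SE 0.16, 95% interval -0.79 to -0.05, adjusted p = 0.253). Atg4d (686505) had 26.1, 31.0 and 28.7 CPM against 23.2, 23.5 and 23.1 CPM in controls, a log2 change of 0.30 (SE 0.12, adjusted p = 0.280). In both genes the groups did not overlap. Atg4b (316640), the most active protease of the family, had 44.7, 44.4 and 48.5 CPM against 41.4, 43.7 and 41.8 CPM in controls (log2 change 0.11, SE 0.10), and Atg4a had a log2 change of -0.05 (SE 0.13).

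As a ratio within each library, Atg4d to Atg4c stood at 1.52, 1.63 and 1.90 in TPM in DST-MNs wounds against 1.15, 0.90 and 1.05 in controls, or 1.69 ± 0.195 and 1.03 ± 0.125 (mean ± SD, n = 3 each). The exact two-sided permutation test gave p = 0.1, the smallest that 3 against 3 libraries allow, and 0.35 after Benjamini-Hochberg adjustment over the 7 ratios of relatives that were computed. This pair joins the highest and the lowest log2 change among the ATG4 genes, and no other ATG4 pair was computed. The adjustment does not count that choice, so the ratio adds no separate evidence to the changes of the single genes. The counts of Atg4d were fractional in all 6 libraries and the gene overlaps Kri1 in the reference assembly, so its level is uncertain. The same holds for other members. Becn1 and Gabarapl2 were fractional in all 6 libraries and overlap Cntd1 and Adat1, Nbr1 and Lamp1 were fractional in all 6, and Wipi1 overlaps Arsg. Pik3r4 overlaps Rpl29, a ribosomal protein gene with 455, 420 and 554 CPM in DST-MNs wounds and 585, 517 and 480 CPM in controls, far above Pik3r4 itself.

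The ATG8 family itself, the LC3 and GABARAP proteins that coat the autophagosome, had 5 log2 changes below 0, from -0.26 to -0.14, and 1 library moved most of them. Map1lc3a (362245), an LC3 gene, had 61.6, 84.2 and 87.9 CPM in DST-MNs wounds against 95.1, 92.4 and 87.9 CPM in controls. The highest treated and the lowest control library were nearly level, and the log2 change was -0.24 (SE 0.15, adjusted p = 0.483). Gabarap (58974) had 268, 294 and 338 CPM after treatment and 365, 380 and 332 CPM in controls, which overlapped (log2 change -0.26, SE 0.14). Map1lc3b had a log2 change of -0.14 (SE 0.16), Gabarapl1 one of -0.15 (SE 0.21) and Gabarapl2 one of -0.18 (SE 0.16).

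DST-MNs 1 had the lowest CPM of all 6 libraries for each of these 5 genes, and the median deviation of the family from the mean of the libraries was -0.33 there, against 0.02 and 0.05 in DST-MNs 2 and 3 and 0.21, 0.14 and -0.08 in controls 1, 2 and 3. Without DST-MNs 1 the log2 changes were -0.10 for Map1lc3a, -0.03 for Map1lc3b, -0.19 for Gabarap, -0.02 for Gabarapl1 and -0.12 for Gabarapl2. Without control 1, Map1lc3b stood at -0.03 and Gabarapl1 at 0.01. DST-MNs 1 also held the most keratinocyte marker RNA. Whether the 2 are connected was not tested. The makeup of the family was steady: Gabarap supplied 59.4 ± 2.56% of its TPM in DST-MNs wounds and 60.6 ± 1.95% in controls, and Map1lc3b 14.95 ± 1.01% and 14.17 ± 1.199% (mean ± SD, n = 3 each).

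**Figure D3:**
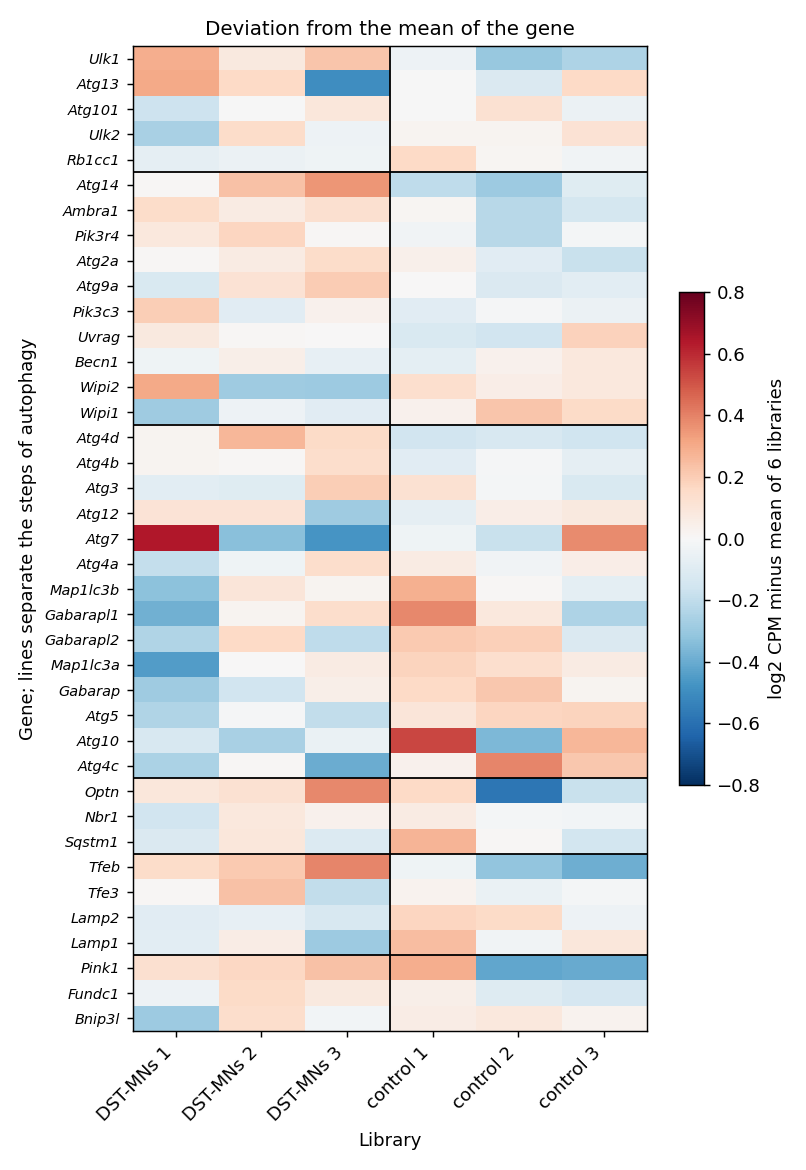
Log2 CPM of each of the 39 genes in each library minus the mean of that gene over 6 libraries, with genes ordered by step and by log2 change; red is above and blue below the mean. Ulk1, Atg14 and Tfeb are higher in the 3 DST-MNs libraries, Atg5 and Atg4c lower, and Atg7 and Atg10 vary among libraries of a group.

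Of the 3 cargo receptor genes, 0 were called, and Sqstm1 and Nbr1 were closer to 0 than Optn. Sqstm1 (113894), which encodes p62, the receptor for ubiquitinated cargo, had 217, 251 and 218 CPM in DST-MNs wounds and 284, 236 and 212 CPM in controls. The groups overlapped, and the log2 change was -0.10 (SE 0.15, 95% interval -0.45 to 0.26). Nbr1, a relative of p62, had a log2 change of -0.02 (SE 0.11). Optn (246294), encoding optineurin, a receptor that also serves mitophagy, had 87.2, 89.2 and 107 CPM after treatment and 91.4, 54.9 and 72.3 CPM in controls, and control 1 lay inside the treated range (log2 change 0.37, SE 0.20, 95% interval -0.10 to 0.85, adjusted p = 0.399). Without control 1 the log2 change of Optn was 0.57 (adjusted p = 0.148). Against control 1 alone, the control with the highest CPM, it was 0.04.

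Among the regulators of the lysosome, Tfeb (316214) had the highest log2 change of the 39 genes. It had 30.8, 32.2 and 36.6 CPM in DST-MNs wounds against 27.2, 22.4 and 21.2 CPM in controls. Each treated library was above every control (log2 change 0.49, SE 0.14, 95% interval 0.15 to 0.84, unadjusted p = 0.0121), but with adjustment over all genes the p was 0.179, and 0.0909 with DESeq2. Tfe3 (317376), a transcription factor of the same family, had 46.6, 54.5 and 40.4 CPM and 47.2, 44.6 and 45.8 CPM in controls (log2 change 0.04, SE 0.13). The ratio of Tfeb to Tfe3 in TPM was 0.936, 0.841 and 1.29 after treatment against 0.821, 0.704 and 0.672 in controls (exact two-sided permutation p = 0.1, the smallest possible, and 0.35 after adjustment over 7 ratios). Leaving out single libraries gave log2 changes of 0.42 to 0.60 for Tfeb.

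Neither gene of the lysosomal membrane was called. Lamp1 (25328), a major glycoprotein of that membrane, had 583, 644 and 505 CPM in DST-MNs wounds and 735, 606 and 659 CPM in controls, a log2 change of -0.21 (SE 0.15). Lamp2 (24944), which is needed for fusion of autophagosomes with lysosomes, had 346, 352 and 337 CPM against 415, 410 and 358 CPM in controls. The Lamp2 groups were apart by a narrow gap (log2 change -0.19, SE 0.12, adjusted p = 0.473). In log2(TPM + 1) the changes were -0.07 for Lamp1 and -0.03 for Lamp2. The part of Tfeb in these levels was not tested.

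TFEB and TFE3 bind an E-box, CACGTG, that lies within a longer element in the promoters of lysosomal genes. In the 250 bases before the gene start, this palindrome was found for 4 of the 33 listed genes with a RefSeq promoter (12.1%). It was found for 6.18% of all 27457 genes with such a promoter, whether or not they were tested here. Among the related genes described below it was found for 19 of 95 (20%). These include 5 of 17 genes of lysosomal enzymes, membrane proteins and the proton pump (29.4%). The 7-base form TCACGTG, searched on both strands and holding the E-box within it, was found for 2 of the 33 (6.06%) and for 3.13% of all. No RefSeq promoter was matched for Rb1cc1, Becn1, Atg9a, Map1lc3a, Bnip3l and Fundc1. The 4 promoters are printed to set the letters beside the changes of their genes (RefSeq, build GRCr8, all read 5′ to 3′ toward the gene start, E-boxes in capitals), and a match describes the letters and not binding.
Lamp1, chr16:83075064-83075313, minus strand: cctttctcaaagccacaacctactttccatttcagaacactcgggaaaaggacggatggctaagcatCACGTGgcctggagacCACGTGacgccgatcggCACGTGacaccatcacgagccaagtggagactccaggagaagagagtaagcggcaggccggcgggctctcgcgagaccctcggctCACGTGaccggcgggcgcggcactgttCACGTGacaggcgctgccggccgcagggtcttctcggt
Atg3, chr11:69159281-69159530, minus strand: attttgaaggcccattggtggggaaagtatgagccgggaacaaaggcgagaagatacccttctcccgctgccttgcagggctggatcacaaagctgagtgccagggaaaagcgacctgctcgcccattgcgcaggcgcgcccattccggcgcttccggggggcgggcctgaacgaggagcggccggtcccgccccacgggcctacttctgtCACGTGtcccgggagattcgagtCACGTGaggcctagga
Pink1, chr5:155825951-155826200, minus strand: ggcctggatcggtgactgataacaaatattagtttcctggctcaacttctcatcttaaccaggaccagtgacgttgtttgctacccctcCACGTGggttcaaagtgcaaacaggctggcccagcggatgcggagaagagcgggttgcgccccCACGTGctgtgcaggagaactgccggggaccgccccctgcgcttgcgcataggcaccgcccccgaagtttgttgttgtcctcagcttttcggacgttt
Atg5, chr20:49380585-49380834, plus strand: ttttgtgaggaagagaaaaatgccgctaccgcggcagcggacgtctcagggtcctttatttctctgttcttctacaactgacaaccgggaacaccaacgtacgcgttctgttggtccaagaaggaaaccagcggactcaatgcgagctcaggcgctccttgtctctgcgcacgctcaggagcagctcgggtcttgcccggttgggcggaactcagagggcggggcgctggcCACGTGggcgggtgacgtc

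The Lamp1 promoter held 5 E-boxes, whose first bases lay 183, 167, 150, 65 and 38 bases before the start. Atg3 held 2, at 39 and 16 bases, Pink1 held 2, at 161 and 98 bases, and Atg5 held 1, at 19 bases. The log2 changes of these genes were -0.21 for Lamp1, 0.01 for Atg3, 0.32 for Pink1 and -0.30 for Atg5. None was called, and whether the motif bears on these changes was not tested.

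Pink1 (298575), the kinase that accumulates on damaged mitochondria, had 30.3, 31.1 and 32.7 CPM in DST-MNs wounds and 33.8, 20.8 and 20.9 CPM in controls 1, 2 and 3. Control 1 was the highest of the 6 libraries, while controls 2 and 3 were below all others. The same 2 libraries were those with little muscle RNA, at 25.6 and 492 TPM of muscle markers against 7028 or more in each of the other 4. The log2 change of Pink1 was 0.32 (SE 0.21, adjusted p = 0.495). It was 0.58 (adjusted p = 0.0837) without control 1 and -0.12 against control 1 alone. Control 1 was the highest library, so the sign of the value against it was set by that choice. The part of muscle in the level of Pink1 was not tested.

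The catalytic AMPK subunit gene Prkaa2, chosen for mention after its values were seen, followed the same libraries. It had 17.9, 28.3 and 15.6 CPM in DST-MNs wounds and 20.2, 0.543 and 2.49 CPM in controls 1, 2 and 3. Its log2 change of 1.41 (SE 1.06, adjusted p = 0.545) became 3.75 without control 1, where it passed the threshold (adjusted p = 0.0490). Against control 1 alone, a split chosen after the values were seen, it was 0.02. The AMPK subunit genes Prkaa1, Prkab1 and Prkag1 had log2 changes of 0.02, 0.12 and -0.07.

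Bnip3l and Fundc1 encode receptors on the outer mitochondrial membrane that bind ATG8 proteins without ubiquitin. Bnip3l (140923), which clears mitochondria from maturing red cells and responds to low oxygen, had 165, 223 and 199 CPM after treatment and 211, 215 and 206 CPM in controls, a log2 change of -0.10 (SE 0.14). Markers of erythroid cells summed to 11.9, 22.6 and 22.2 TPM in DST-MNs 1, 2 and 3 and to 1.76, 22.8 and 28.7 TPM in controls 1, 2 and 3. The part of erythroid RNA in the level of Bnip3l was not tested. Fundc1 had a log2 change of 0.13 (SE 0.12).

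**Figure D4:**
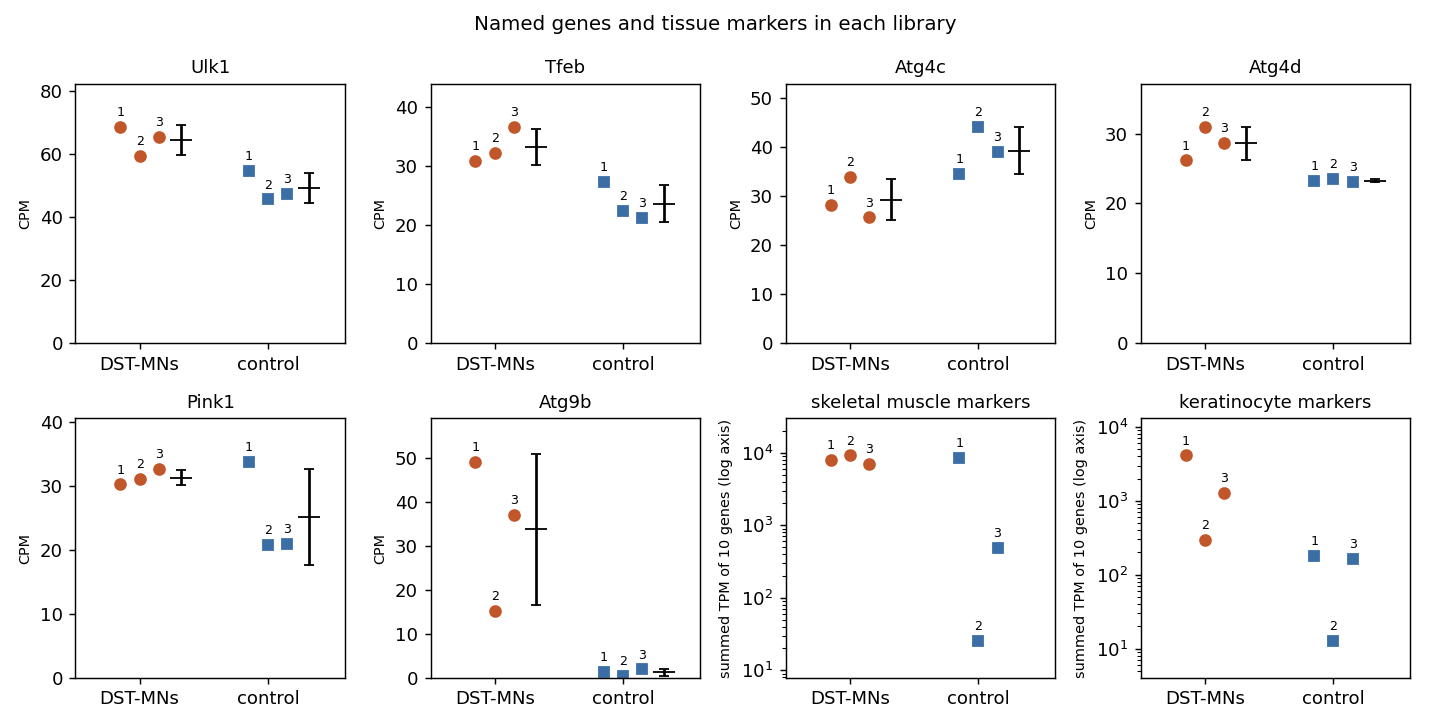
CPM of Ulk1, Tfeb, Atg4c, Atg4d, Pink1 and Atg9b in each library (numbers are replicates; the bar beside the points is the mean ± SD of 3 libraries), and summed TPM of 10 skeletal muscle and 10 keratinocyte markers on log axes. Ulk1, Tfeb and Atg4d are higher and Atg4c is lower in every DST-MNs library, Pink1 is low in the 2 controls with little muscle RNA, and Atg9b is near 0 in all controls.

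Groups that did not overlap in CPM were counted for 13 of the 39 genes, 7 higher and 6 lower after treatment, or 33.3%, where 22.9% of all genes tested had groups apart. The 13 were Ulk1, Pik3r4, Atg14, Ambra1, Atg4b, Atg4d and Tfeb on the higher side and Rb1cc1, Wipi1, Atg5, Atg4c, Map1lc3a and Lamp2 on the lower. This too depended on the scale. In TPM the groups of the 7 higher genes stayed apart, while those of all 6 lower genes overlapped. Separation in TPM was not counted over all genes. Signs of single genes depended on the scale. In log2(TPM + 1) the median of all genes was 0.12 above 0 and the median of the 39 was 0.10, and 12 of the 39 changed sign, none of them with an unadjusted p below 0.05 on either scale. In the ATG8 family Map1lc3b and Gabarapl1 came to 0.00 on that scale. Ulk1 (0.51), Tfeb (0.59), Atg14 (0.45) and Atg4d (0.44) stayed above 0, and Atg5 (-0.21), Atg4c (-0.24) and Wipi1 (-0.12) below it.

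Beyond the 39, 111 related genes in 7 lists were examined in the same fit, and all were tested. Of these 1 rose and 1 fell, against shares over all genes of 0.658% higher and 0.118% lower. Without adjustment, p was below 0.05 for 14 of them (12.6%), of which 8 were higher and 6 lower. Their median log2 change was 0.00. The gene that rose was Atg9b (499973), a relative of the scramblase gene Atg9a that in humans is expressed in few tissues. Atg9b had 49.1, 15.1 and 36.9 CPM in DST-MNs 1, 2 and 3, against 1.24, 0.466 and 1.87 CPM in controls 1, 2 and 3.

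Every treated library was well above every control, and the log2 change of Atg9b was 4.81 (SE 0.62, 95% interval 3.33 to 6.30, adjusted p = 0.0281). The call held in 2 of 6 cases with 1 library left out, without DST-MNs 2 (adjusted p = 0.0422) and without control 1 (0.0426). It was lost without DST-MNs 1 (0.0994), DST-MNs 3 (0.123), control 2 (0.0952) or control 3 (0.0795), while the log2 change stayed between 4.43 and 5.29. Keratinocyte markers were highest in the same order among the treated libraries, DST-MNs 1, 3 and 2, at 4118, 1268 and 299 TPM. The order differed among controls 1, 2 and 3, with 180, 12.8 and 164 TPM of the markers and 1.24, 0.466 and 1.87 CPM of Atg9b. DST-MNs 2, with 299 TPM of the markers, had 15.1 CPM of Atg9b. The 9 of 10 keratinocyte markers that passed the filter all had log2 changes above 0, 3 of the 10 were at 0 in control 2 and 1 in control 3, and their part in the level of Atg9b was not tested. Sebaceous gland markers all had log2 changes above 0, with 3 of 10 called: Awat1 and Awat2, wax ester synthases (log2 changes 6.92 and 6.25), and Elovl4, a fatty acid elongase (6.61). Soat1 (0.82), Mgst1 (0.39), Pparg (0.28) and Dgat2 (0.13) had groups that overlapped. The sebaceous list summed to 867, 717 and 752 TPM in DST-MNs 1, 2 and 3 and to 284, 247 and 212 TPM in controls 1, 2 and 3, with 4 of 10 at 0 in control 2. Mgst1 alone supplied 287, 188 and 268 TPM of these sums in DST-MNs 1, 2 and 3 and 196, 176 and 137 TPM in controls 1, 2 and 3. The part of these glands in the level of Atg9b was not tested either. Atg9a, the form found in most cells, had 72.0, 85.0 and 90.2 CPM in DST-MNs wounds and 78.7, 72.2 and 73.9 CPM in controls.

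Atg9b overlaps Nos3, the gene of endothelial nitric oxide synthase, in the reference assembly, and whether counting used strand is not given, so reads of the overlap cannot be told apart. Nos3 had 41.7, 52.0 and 43.2 CPM in DST-MNs wounds against 68.5, 80.8 and 70.0 CPM in controls (log2 change -0.68, SE 0.13, adjusted p = 0.0885). Of 8 endothelial markers, 7 had log2 changes below 0, the direction of Nos3, and 1, Cldn5, was at 0.89 in groups that overlapped. Those below 0 included Vwf at -0.70 and Pecam1 at -0.49 in groups that did not overlap. Of the 8, 0 were called by edgeR and 1, Vwf, by DESeq2. The part of endothelial cells in the level of Nos3 was not tested.

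Of the other autophagosome and fusion genes, 24 in all, Vmp1, which encodes an endoplasmic reticulum protein needed to form autophagosomes, had 242, 285 and 252 CPM after treatment against 362, 365 and 329 CPM in controls. Its groups were apart (log2 change -0.44, SE 0.13, adjusted p = 0.172) and DESeq2 called it (adjusted p = 0.00442). Epg5, a tethering factor for fusion with lysosomes, had a log2 difference of 0.32 (adjusted p = 0.221, SE 0.11). The 12 other cargo and ER-phagy receptors had 0 calls and log2 changes from -0.24 to 0.18, with Tex264 at 0.18, Atl3 at -0.24 and Ncoa4, the ferritin receptor, at -0.18. The 15 other mitophagy genes had 0 calls, and the smallest p was that of Rhot2, a mitochondrial transport gene, with a log2 change of 0.35 (SE 0.12, adjusted p = 0.216). Bnip3 had a log2 change of -0.20 and Vdac1 one of -0.23.

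Upstream of ULK1, the 20 genes of mTORC1, which restrains autophagy, and of AMPK, which promotes it, gave 0 calls and a median of 0.04. The smallest p-values were those of Sesn1 and Sesn3, 2 of the 3 sestrin genes, whose products inhibit mTORC1. Sesn1 had 33.9, 33.4 and 36.0 CPM in DST-MNs wounds against 25.6, 22.4 and 28.1 CPM in controls (log2 change 0.44, SE 0.13, adjusted p = 0.173), and Sesn3 had a log2 difference of 0.80 (adjusted p = 0.245, SE 0.29). The other sestrin gene, Sesn2, had a log2 change of 0.33 (SE 0.19, unadjusted p = 0.128). Prkab2, an AMPK subunit, had one of 0.58 (SE 0.23, adjusted p = 0.276), and the kinase gene Mtor itself one of -0.06 (SE 0.13). The 4 genes of eIF5A and its hypusination enzymes were all below 0, with 0 calls. Eif5a had 515, 346 and 417 CPM after treatment and 447, 660 and 669 CPM in controls, which overlapped (log2 change -0.47, SE 0.22, adjusted p = 0.348), Eif5a2 had a log2 change of -0.37 and Dohh one of -0.19.

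The 24 genes of lysosomal enzymes, lysosomal membrane proteins and the proton pump had a median log2 change of -0.07 and 0 calls by edgeR, while DESeq2 called 2. Lipa, lysosomal acid lipase, had 269, 240 and 215 CPM in DST-MNs wounds against 150, 156 and 142 CPM in controls (log2 change 0.69, SE 0.13, adjusted p = 0.0796). Ctsl, the protease cathepsin L, had 878, 848 and 1125 CPM against 1836, 1592 and 1598 CPM in controls (log2 change -0.82, SE 0.17, adjusted p = 0.110). For both the groups were far apart and the directions opposite, so the 2 genes with the smallest p in this list did not move together. Atp6v1h, a subunit of the proton pump, had a log2 difference of 0.37 (adjusted p = 0.248, SE 0.13). Of 12 genes of the hypoxia response, Adm fell (log2 change -1.74, SE 0.23, adjusted p = 0.0311), at 9.22, 12.8 and 10.2 CPM in DST-MNs wounds against 34.1, 45.9 and 27.4 CPM in controls. Its call held without control 1 or control 3 and was lost without DST-MNs 1, 2 or 3 or control 2 (adjusted p up to 0.141). For Pgk1 the log2 change was -0.74 (SE 0.21, adjusted p = 0.168) and for P4ha1 it was -0.74 (SE 0.29). The hypoxia list as a whole was mixed, with 7 of 12 log2 changes below 0 and 5 above. Its median was -0.06 and its highest log2 change 0.75.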

How the data were processed

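RNA sequencing was done on 3 DST-MNs and 3 control wounds. The table holds, per the file headers, the authors' read counts for each gene, which are estimated counts because some are fractional, and FPKM, TPM and normalised counts (a signal of counts divided by 1 factor per library). FPKM and normalised counts, as deposited, were not used in tests. The submitters' processing notes name the build mRatBN7.2. Aligner, counter and strand setting: not given in the sources used here.

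Counts were rounded, filtered with filterByExpr (minimum count 10) to 14427 genes, scaled by TMM and tested with edgeR 4.0.16 (quasi-likelihood, R 4.3.3), with Benjamini-Hochberg adjustment over all genes at 0.05. DESeq2 1.42.0 and limma 3.58.1 served as alternatives. The scripts were tested on simulated data. The deposited TPM served to compare genes and, as log2(TPM + 1), as an alternative scale. Promoters came from RefSeq by gene ID (build GRCr8), for 33 of 39 genes.

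The members and all gene lists were chosen with earlier results of these data known. Genes were named where p was below 0.05, where the groups did not overlap, where the log2 change was among the 3 highest or lowest, or where TPM was highest in a step. In each related list the 3 smallest p-values were named, and other genes only as said in the text. The labels call the samples biological replicates.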

Additional observations from a re-analysis of the deposited data

How the results depend on the processing

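None of the 39 genes was called under other scalings and filters, DESeq2, limma-voom, TPM scales, the replicate block, or with each library left out. Their median log2 change of -0.03 became 0.09 with total-count scaling, where 10 of 39 signs changed and the median of all genes was 0.12, and 0.10 and 0.11 in log2(TPM + 1) and log2(TPM + 0.1), where 12 signs changed. The 112 genes called over the whole table became 1018 with DESeq2, 38 with at least 10 counts in every library, and 14 to 402 with 1 library left out. An alternative with controls 2 and 3 left out was chosen after seeing the data. It leaves 1 control library, so only its log2 changes are given. The 2 calls among related genes became 6 with DESeq2, 1 with at least 10 counts in every library, 1 with limma-voom and 0 to 3 with 1 library left out. The cause was not tested. Whether replicate numbers pair the samples was not settled. In deviations from the group means, same-numbered samples correlated at -0.02, 0.10 and 0.11. DST-MNs 2 and DST-MNs 3 correlated best with the control of the same number, and DST-MNs 1 with control 3. With 3 libraries a group, such weak correlations cannot decide the question. With the replicate number as a block, 123 genes and 0 of the 39 were called. With 3 libraries a group and a biological coefficient of variation of 30.2%, small changes of less abundant genes such as Atg10 are not resolved. In counts simulated with this design, 18 of 100 genes given a 2-fold change and 79 of 100 given a 4-fold change were called. These genes were drawn from all genes with a mean of at least 1 CPM. The listed genes were more precise, with a median SE of 0.13 against 0.2 over all genes, and recovery among them alone was not simulated. A lack of calls alone therefore does not exclude a 2-fold change, and the interval of each gene is the better guide.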
